A study of Mus musculus with 30 samples.

Results

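Genes of adult skeletal muscle contraction were followed in RNA from the fracture callus, as a set of 41 genes of the 43629 in the deposited count table. They were chosen by name, with earlier results of these data known. The choice went by their known place in the contractile machinery, calcium handling, energy supply or protein turnover of the adult muscle fibre. Each was matched to 1 Ensembl identifier. Male C57BL/6J mice received an open osteotomy of the tibia stabilized with an intramedullary nail at 20 weeks of age, and each of the 30 RNA-seq libraries came from the callus of 1 mouse. Lean mice ate a diet with 10 kcal% fat and were taken at d3, d5, d7 or d10 after fracture. Diet-induced obese (DIO) mice ate 60 kcal% fat from 6 weeks of age and were taken on these 4 days and also on d14 or d21. Each of the 10 groups held 3 mice. Lean groups past d10 were not analysed here. By the study's methods, soft tissue around the callus was removed and intact bone was avoided at dissection, so muscle was not a tissue the sampling aimed at.

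Skeletal muscle shortens when thick filaments of myosin pull on thin filaments of actin within the sarcomere, whose ends are anchored in the Z-disc. Calcium released from the sarcoplasmic reticulum binds troponin C on the thin filament and frees the sites where myosin attaches. Slow and fast fibres use different genes for the same parts, such as separate slow and fast forms of the 3 troponin subunits and of the myosin light chains, and several slow forms are also made in heart muscle and, for a time, in immature fibres. The tibia is covered by muscle on several sides, and a fracture injures the fibres next to the bone.

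Between 13247122 and 26365620 reads per library were counted on genes, with a median of 16854427, and the 41 genes had at least 3 counts in each of the 30 libraries, so counting error was small for all but the lowest values. Levels are given as CPM, the counts of a gene relative to all counts of the library, after scaling by the trimmed mean of M-values (TMM). Libraries also held bone and cartilage RNA, with summed CPM of 2473 to 17240 for the osteoblast markers and 66.6 to 67610 for the chondrocyte markers. Of the heart markers, Myl7 and Nppa stayed under 3 counts in each library, Nppb reached 5 counts at most and Myh6 35. Tnni3 reached 146 counts and Myl4, which immature skeletal fibres also make, 7900, both with at least 3 counts in all 30 libraries, so 3 of the 6 heart markers were at or near 0 and the part of heart muscle RNA was not tested. Genes were tested with edgeR (quasi-likelihood F, two-sided), a gene counted as past the threshold when its Benjamini-Hochberg adjusted p over all genes tested was under 0.05, and all 41 genes passed the filter on low counts in each comparison.

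Muscle RNA was present in each callus but its amount differed widely between mice of the same group. The 41 genes took 1.98, 1.39 and 2.28% of all counts in the Lean libraries of d3, 3.53, 2.43 and 0.792% at d5, 3.14, 2.09 and 1.08% at d7 and 0.155, 2.38 and 1.66% at d10. In DIO libraries they took 3.24, 1.85 and 2.62% at d3, 1.06, 2.24 and 1.78% at d5, 2.99, 1.19 and 1.93% at d7, 3.59, 4.21 and 3.17% at d10, 2.01, 4.63 and 0.878% at d14 and 0.0787, 2.203 and 0.482% at d21. The share was thus lowest in DIO d21 replicate 1 (0.0787%, 95% Wilson interval 0.0774 to 0.0801%), next lowest in Lean d10 replicate 1 (0.155%, 95% Wilson interval 0.153 to 0.157%) and highest in DIO d14 replicate 2 (4.63%, 95% Wilson interval 4.62 to 4.64%), a 58.8-fold range; the intervals cover counting error only. Within a group the highest share was from 1.33 times (DIO d10) to 27.98 times (DIO d21) the lowest. Counts of the 41 genes past the threshold on Lean d10 or DIO d21 are therefore also given for fits that left out a library. In these bulk samples, fewer muscle cells and less muscle RNA per cell cannot be told apart.

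**Figure D1:**
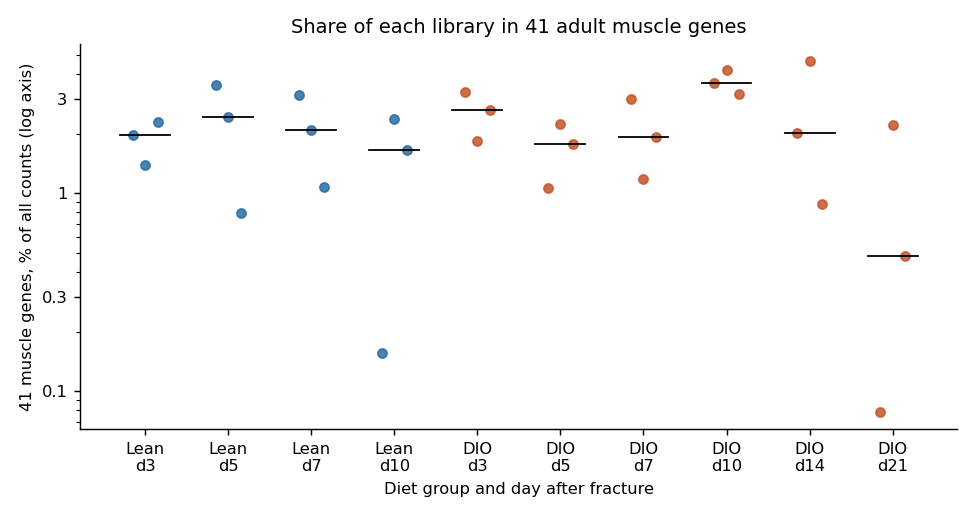
Share of all counts in the 41 muscle genes, in percent on a log axis, for each of the 30 libraries by diet group and day after fracture; points are single calli (blue Lean, orange DIO) and bars are group medians. The 3 DIO d10 calli lie close together between 3.17 and 4.21%, while Lean d10 and DIO d21 each hold a callus under 0.2%.

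Per kilobase of annotated exon, and averaged over the 30 libraries, the highest levels belonged to fast-fibre and general parts of the sarcomere. Acta1, the actin of the skeletal thin filament, was highest at 2256 CPM per kb, followed by the fast troponins Tnnc2 (1321) and Tnnt3 (1290) and the fast regulatory light chain Mylpf (1201). Pvalb, the calcium buffer of fast fibres, stood at 909 and Ckm, muscle creatine kinase, at 741 CPM per kb. Among Z-disc genes the titin cap Tcap led with 406 CPM per kb, and among protein turnover genes Klhl41, which stabilizes nebulin, led with 32.2. Slow forms were far lower, with Tnnc1 at 29.1, Tnnt1 at 25.1, Tnni1 at 15.5, Myl2 at 5.85 and Myl3 at 3.83 CPM per kb. Neb (9.87) and Ttn (5.48), which encode the giant filament proteins nebulin and titin, were low on this scale, and levels of such long transcripts depend on which exons are annotated. No member overlapped another gene on the same strand and 16 overlapped one on the opposite strand, of which Tnnc2 shared 74.0% of its exon bases with Ube2c, so its level is uncertain if counting ignored strand. Reads of Myl1 may also be shared with its pseudogene Mylf-ps, which matches 421 bases at 99.3% identity, and those of Klhl41 with a repeat found in 110 other genes.

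Promoter sequence was also looked up for the genes, as a description. RefSeq promoters on GRCm38.p6 were found for 30 of the 41 genes, in 37 windows of 250 bases that end at an annotated start. The hexamer CAGCTG, an E-box that reads the same on both strands, was present in 20 of these 37 windows (54.05%) against 13% of all 32851 windows, and belonged to 17 genes. It is shown in capitals for the genes that lead the thin filament, thick filament and energy groups and for the slow troponin Tnni1, each written 5′ to 3′ on the gene's strand.
Acta1, chr8:123894776-123895025, minus strand: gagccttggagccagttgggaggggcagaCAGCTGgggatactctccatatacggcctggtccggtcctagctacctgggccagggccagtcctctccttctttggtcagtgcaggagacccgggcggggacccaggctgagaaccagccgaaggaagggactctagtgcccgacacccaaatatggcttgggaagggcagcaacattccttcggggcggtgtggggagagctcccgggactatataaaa
Mylpf, chr7:127211358-127211607, plus strand: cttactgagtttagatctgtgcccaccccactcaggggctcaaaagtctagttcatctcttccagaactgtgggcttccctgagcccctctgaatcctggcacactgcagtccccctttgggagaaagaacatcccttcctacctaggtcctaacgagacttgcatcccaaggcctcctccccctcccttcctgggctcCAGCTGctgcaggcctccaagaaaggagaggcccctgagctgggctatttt
Ckm, chr7:19410844-19411093, plus strand: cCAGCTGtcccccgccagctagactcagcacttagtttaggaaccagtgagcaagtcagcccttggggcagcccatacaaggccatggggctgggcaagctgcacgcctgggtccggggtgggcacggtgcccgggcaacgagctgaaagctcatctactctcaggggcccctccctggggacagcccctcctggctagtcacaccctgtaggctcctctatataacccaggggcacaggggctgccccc
Tnni1, chr1:135799171-135799420, plus strand: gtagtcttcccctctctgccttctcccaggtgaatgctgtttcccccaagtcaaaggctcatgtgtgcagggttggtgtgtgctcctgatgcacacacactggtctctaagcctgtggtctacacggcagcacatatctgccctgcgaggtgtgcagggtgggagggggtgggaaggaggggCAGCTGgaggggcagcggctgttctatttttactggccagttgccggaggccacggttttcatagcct
The heptamer GTAAACA, searched on both strands, was present in 3.17% of all windows and in 1 of the 37, that of Trim63, a ubiquitin ligase of muscle protein breakdown. This heptamer alone is in capitals for Trim63, where it lies on the opposite strand and reads as its reverse complement.
Trim63, chr4:134314870-134315119, plus strand: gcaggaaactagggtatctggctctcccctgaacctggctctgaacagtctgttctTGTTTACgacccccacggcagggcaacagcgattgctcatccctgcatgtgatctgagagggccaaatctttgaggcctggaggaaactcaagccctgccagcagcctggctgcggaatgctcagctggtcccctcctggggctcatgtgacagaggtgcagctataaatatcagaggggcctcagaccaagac
The longer CArG box was matched in 4 of the 37 windows (10.81%, against 1.47% of all) and the MEF2 motif also in 4 (10.81%, against 0.51%). TATAAA was present in 5 windows (13.51%, against 12.37%). Some windows belong to the same gene and overlap, and a match describes the letters in the window only.

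Across the 30 libraries most of the genes followed the muscle share of the library. On the log2 scale, the correlation of a gene's CPM with the summed CPM of the other 40 was at least 0.9 for 30 genes, with a median of 0.944 and the highest value for Pgam2 (0.990), a muscle phosphoglycerate mutase. The lowest values belonged to the 3 slow troponins Tnnt1 (0.372), Tnni1 (0.408) and Tnnc1 (0.4217), then to the slow light chains Myl3 (0.455) and Myl2 (0.529) and to Fbxo32 (0.567). These correlations are descriptions over points that share a library and its scaling. Fbxo32, which encodes the ubiquitin ligase atrogin-1, ran only from 20.5 to 116 CPM, and at 33 CPM it was still plainly present in the callus with the least muscle RNA, where Acta1 was at 52.6 CPM against up to 7421 elsewhere.

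Of the leading genes of the 6 role groups, Ckm, Mylpf and Tcap followed the summed level of the other genes most closely (correlations of 0.984, 0.962 and 0.960), then Acta1 (0.898), Klhl41 (0.891) and Pvalb (0.773). Acta1 was at 4915, 2838 and 4987 CPM at d3, 6783, 5517 and 1691 at d5, 4492, 3077 and 1581 at d7 and 292, 3286 and 1982 at d10 in Lean mice. In DIO mice Acta1 was at 7421, 4022 and 6548 CPM at d3, 2549, 5129 and 3895 at d5, 5352, 2074 and 3780 at d7, 4291, 4298 and 3063 at d10, 1622, 4307 and 849 at d14 and 52.6, 2699 and 557 at d21. Tcap was at 249, 256 and 544 CPM at d3, 433, 411 and 133 at d5, 566, 356 and 149 at d7 and 50.9, 649.9 and 377 at d10 in Lean mice and at 599, 309 and 461 CPM at d3, 132, 237 and 189 at d5, 541, 149.9 and 444 at d7, 756, 937 and 582 at d10, 434, 875 and 221 at d14 and 14.1, 398 and 90.8 at d21 in DIO mice. For both genes the lowest values were those of Lean d10 replicate 1 and DIO d21 replicate 1. Ckm was at 1646, 1178 and 2142 CPM at d3, 2862, 2207 and 805 at d5, 3346, 2395 and 894 at d7 and 156, 2739 and 1703 at d10 in Lean mice and at 3298, 1802 and 2425 CPM at d3, 817, 1452 and 1149 at d5, 3217, 1130 and 2250 at d7, 3894, 5570 and 3803 at d10, 1941, 5718 and 997 at d14 and 71.01, 2762 and 398 at d21 in DIO mice. Mylpf was at 926, 584 and 811 CPM at d3, 2387, 1350 and 425 at d5, 1876, 1255 and 652 at d7 and 97.6, 1512 and 1325 at d10 in Lean mice and at 1240, 674 and 899 CPM at d3, 598, 1714 and 1383 at d5, 1910, 1078 and 1050 at d7, 2101, 3367 and 2623 at d10, 1095, 3315 and 515 at d14 and 60.99, 1191 and 236 at d21 in DIO mice. Klhl41 was at 138, 74.96 and 97.2 CPM at d3, 211, 104 and 30.02 at d5, 105, 63.9 and 49.4 at d7 and 8.90, 45.6 and 53.04 at d10 in Lean mice and at 129, 77.4 and 119 CPM at d3, 78.2, 172 and 125 at d5, 129, 78.8 and 62 at d7, 84.8, 92.3 and 61.7 at d10, 55.8, 108 and 22.5 at d14 and 1.44, 50.8 and 14.3 at d21 in DIO mice. Ckm and the fast light chain Mylpf were highest in DIO d10 or d14, whereas Acta1 and Klhl41 were highest in d3 or d5.

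DIO and Lean calli were compared on each shared day, and none of the 41 genes passed the threshold on any of them. On d10 all 41 genes were higher in DIO on average, with a median log2 difference of 1.33 against 0.02 over all genes. The DIO and Lean libraries did not overlap for 31 of the 41, all higher in DIO, where 6.86% of all genes tested were higher without overlap. Most of the 41 genes varied together with the muscle share of a library, so these 31 are not separate results. Ckm was at 156, 2739 and 1703 CPM in Lean and 3894, 5570 and 3803 CPM in DIO, and Mylpf at 97.6, 1512 and 1325 CPM in Lean and 2101, 3367 and 2623 CPM in DIO. Each DIO value was above each Lean value for both genes, and the Lean values were spread widely by the callus with little muscle. For Ckm the edgeR fit gave a log2 difference of 1.54 with SE 0.77 (adjusted p = 0.686), and 0% of the 15341 genes tested on d10 passed. Without Lean d10 replicate 1 the median over the 41 genes was 0.81 and none passed, while 4 genes passed on d5 without Lean d5 replicate 3. At an unadjusted p under 0.05, 10 of the 41 genes passed on d10, 7 on d3, 2 on d5 and 5 on d7. Over all genes tested, 1082 of 15341 passed so on d10, 2374 of 15772 on d3, 2913 of 15722 on d5 and 2614 of 15753 on d7. DESeq2 called 1 gene on d3 (Jph2), 1 on d7 (Tnnc1) and none on d5 or d10. The share of all genes past the adjusted threshold in edgeR was 0% on d3, 1.08% on d5 and 2.32% on d7. The change of the diet difference over d3 to d10 was past the threshold for none of the 41 genes (1.65% of all genes), with the smallest adjusted p at 0.325.

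Over the days in Lean mice, 4 of the 41 genes differed between any of d3 to d10 (19% of all genes did), the 3 slow troponins and Trim63. Between d3 and d10, Trim63 and Fbxo32 were the genes that fell, where 14.1% of all genes tested fell. Trim63 was at 114, 34.9 and 42.2 CPM at d3, 35.5, 28.5 and 9.11 at d5, 30., 11.8 and 11.3 at d7 and 5.26, 13.6 and 8.95 at d10, highest on d3 with no overlap between d3 and d10 (log2 change -2.74, SE 0.63, adjusted p = 0.00803). Fbxo32 was at 75.8, 47.5 and 69.9 CPM at d3, 57.2, 46.4 and 30.4 at d5, 44.2, 39.5 and 28.7 at d7 and 20.5, 34.9 and 35.9 at d10, again without overlap between d3 and d10 (log2 change -1.05, SE 0.29, adjusted p = 0.0186). Over all genes tested, 3654 of 16471 were lower on d10 than on d3 without overlap, and so were 7 of the 41. No gene passed between d3 and d5 (0.449% of all genes did), between d5 and d7 (0%) or between d7 and d10 (2.73%). At an unadjusted p under 0.05, 4, 4 and 0 of the 41 genes passed in these steps, against 2430, 926 and 4275 of all 16471. DESeq2 called 3 (the slow troponins), 1 (Tnnc1) and 0. Without Lean d5 replicate 1 only Trim63 remained among the genes that differed between any Lean days, since the 3 troponins were lost, and Trim63 was lost there without Lean d3 replicate 1, Lean d7 replicate 2 or Lean d10 replicate 1 or 3. The call of Fbxo32 between d3 and d10 was lost without Lean d3 replicate 1 or Lean d10 replicate 1, that of Trim63 was kept in each of 12 fits, and 3 genes passed between d3 and d5 without Lean d5 replicate 3.

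In DIO mice, 9 of the 41 genes differed between any of d3 to d21 (59.1% of all genes did): Tnnt1, Tnni1, Tnnc1, Myl2, Mybpc1, Myoz2, Pvalb, Mb and Fbxo32. From d3 to d5 the gene that fell was Fbxo32 (log2 change -1.37, SE 0.26, adjusted p = 0.0106), where 0.282% of all genes fell. No gene passed from d5 to d7 (0.0177% of all genes did) or from d7 to d10 (13%), and DESeq2 called none. At an unadjusted p under 0.05, 1 and 4 of the 41 genes passed in these steps, against 2411 and 4537 of all 16995. The d10 values were nevertheless above those of d7 in all libraries for 18 of the 41 genes, against 13.5% of all genes, among them Ckm, at 3217, 1130 and 2250 CPM on d7 and 3894, 5570 and 3803 CPM on d10. Since most of the 41 genes varied together with the muscle share, these 18 are not separate results. From d10 to d14 the slow troponin C Tnnc1 fell (log2 change -3.19, SE 0.71, adjusted p = 0.0467), and from d14 to d21 myoglobin, Mb, fell (log2 change -1.97, SE 0.63, adjusted p = 0.0377), where 0.177% and 9.03% of all genes fell. Mb was at 475, 1103 and 280.2 CPM on d14 and 19.9, 312 and 143 CPM on d21, which overlap. The call of Fbxo32 from d3 to d5 was lost without DIO d3 replicate 1 or DIO d5 replicate 1 or 3, and 1 gene passed from d7 to d10 without DIO d14 replicate 2 or DIO d21 replicate 1 or 2. The call of Tnnc1 was lost without any 1 of 11 of the 18 DIO libraries, and that of Mb without DIO d14 replicate 1 or 2 or DIO d21 replicate 1 or 3.

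Between d3 and d21 in DIO mice, 10 of the 41 genes fell and none rose, where 21.8% of all genes tested fell, so the share of the muscle genes was close to that of all genes. They were Acta1, Tnnt1, Mybpc1, Actn2, Myoz2, Smpx, Ryr1, Mb, Klhl41 and Fbxo32, and the median log2 change over the 41 genes was -1.34 against 0.03 over all genes. Acta1 was at 7421, 4022 and 6548 CPM on d3 and 52.6, 2699 and 557 CPM on d21 (log2 change -2.44, SE 0.85, adjusted p = 0.0267). Myoz2, a Z-disc protein of slow fibres, was at 28.1, 11.9 and 30.3 CPM on d3 and 0.173, 4.93 and 5.13 CPM on d21 (log2 change -2.77, SE 0.70, adjusted p = 0.00384), and Mybpc1, the slow myosin-binding protein C, at 660, 326 and 500.2 and 9.62, 173 and 61 CPM (log2 change -2.61, SE 0.67, adjusted p = 0.00411). Ryr1, the calcium release channel of the sarcoplasmic reticulum, was at 551, 348 and 456 CPM on d3 and 7.26, 241 and 44.8 CPM on d21 (log2 change -2.21, SE 0.79, adjusted p = 0.0293). The d21 values of these 4 genes were below those of d3 without overlap, with replicate 1 of d21 the lowest for each. Over all genes tested, 4451 of 16995 were lower on d21 without overlap, and so were 13 of the 41. DIO d21 replicate 2 was the callus of d21 with the most muscle RNA. Without DIO d21 replicate 2, 35 genes fell between d3 and d21, 34 differed between d14 and d21 and 39 between any days. Shares of all genes are given only for fits with no library left out. These counts, and others from fits without a library, are not set against such a share. Without DIO d21 replicate 1 the counts were 8, 0 and 12, and without DIO d3 replicate 1, DIO d3 replicate 3 or DIO d21 replicate 3 the count between d3 and d21 was 5. With the replicate number as a block it was 17.

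Since the share of muscle RNA varied so widely between calli, the genes were also compared at an equal level of other muscle genes. The mean log2(CPM + 1) of 50 further myofibre genes, such as tropomyosins, myomesins and Des, was added to each fit as a covariate, so that a positive value means more of a gene than expected from those 50. This alternative was chosen after seeing the data, it assumes a common slope over the groups of a fit, and some of the 50 genes, among them Tpm1, Tpm3 and Dmd, are also made outside muscle fibres. On this scale the make-up of the muscle RNA differed between days for 15 of the 41 genes in Lean mice (14.5% of all genes) and for 32 of the 41 in DIO mice (47.6%). Leaving out each library in turn gave 29 to 34 genes in DIO mice and 6 to 23 in Lean mice. The Lean count was 23 without Lean d10 replicate 1, 6 without Lean d10 replicate 2, 8 without Lean d3 replicate 1 or 2 or Lean d5 replicate 2, and 9 without Lean d5 replicate 1 or Lean d7 replicate 1 or 2. In the same way, as a plain share, Acta1 made up 25.98, 21.6 and 22.9% of the 41 genes' counts in Lean d3 and 14.7, 13.04 and 10.99% in Lean d10, and 24.4, 23.4 and 26.1% in DIO d3 and 11.8, 9.51 and 9.22% in DIO d10. Its share was lower on d10 than on d3 in each library of both diets, although Acta1 did not pass the test between d3 and d10 in Lean mice (log2 change -0.40, SE 0.25, adjusted p = 0.264).

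**Figure D2:**
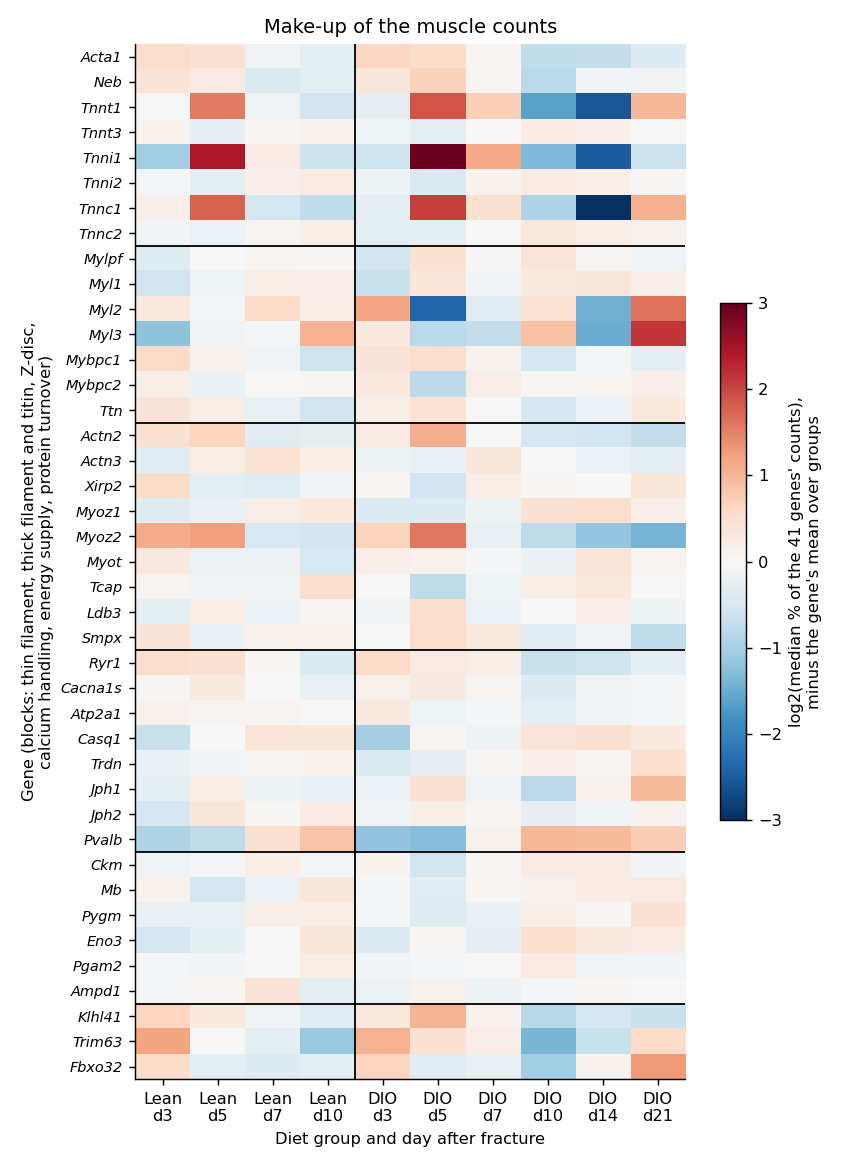
Make-up of the muscle RNA: each cell is the log2 of a gene's group median percent of the 41 genes' counts, minus that gene's mean over the 10 groups, with genes in rows by role and groups in columns. Red blocks mark the slow troponins Tnnt1, Tnni1 and Tnnc1 on d5 in both diets, and the row of Pvalb turns from blue on d3 and d5 to red on d10.

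The 3 slow troponins followed the summed level of the other muscle genes least, and had their highest callus on d5 in each diet. Actn2, Myoz2 and Klhl41 also had their highest callus on d5 in each diet. Tnni1, the slow inhibitory troponin, was at 33.8, 8.79 and 15.9 CPM at d3, 303, 186 and 26.1 at d5, 54.5, 32.96 and 33.9 at d7 and 19.9, 21.1 and 17.1 at d10 in Lean mice. In DIO mice Tnni1 was at 29.9, 12.7 and 35.2 CPM at d3, 63.4, 256 and 230 at d5, 24.7, 87.5 and 67.04 at d7, 6.45, 27.1 and 46.6 at d10, 2.31, 13.98 and 2.33 at d14 and 0.749, 7.17 and 9.95 at d21. The 3 DIO values of d5 were above those of d3, and in Lean mice 1 callus of d5 lay within the range of d3. At an equal level of other muscle genes, Tnni1 rose from d3 to d5 in Lean mice (log2 change 2.89, SE 0.58, adjusted p = 0.0286) and in DIO mice (log2 change 3.08, SE 0.72, adjusted p = 0.0260). Without the covariate the adjusted p was 0.0725 and 0.106, and the Lean call of the covariate fit was kept in 8 of 12 fits that each left out a library, the DIO call in 13 of 18. Lean d3 replicates 2 and 3 and Lean d5 replicates 1 and 2 were the libraries it rested on in Lean mice, and DIO d3 replicates 1, 2 and 3 and DIO d5 replicates 2 and 3 in DIO mice.

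Tnnt1, the slow troponin T, was at 40.5, 25.97 and 49.9 CPM at d3, 205, 156 and 30.7 at d5, 52.9, 42.03 and 40.8 at d7 and 18.1, 36.4 and 17.8 at d10 in Lean mice. In DIO mice Tnnt1 was at 55.3, 16.2 and 70.1 CPM at d3, 49.7, 201 and 139 at d5, 51.8, 99.2 and 72.8 at d7, 16.2, 31.9 and 77.4 at d10, 3.63, 16.2 and 5.50 at d14 and 8.47, 12.7 and 19.02 at d21. Tnnc1, which slow fibres share with heart, was at 25.4, 8.39 and 26.6 CPM at d3, 124, 89.2 and 20.6 at d5, 18.6, 16 and 15.4 at d7 and 9.02, 16.6 and 9.97 at d10 in Lean mice. In DIO mice Tnnc1 was at 27.5, 10.3 and 30.6 CPM at d3, 34.1, 107 and 79.7 at d5, 19.7, 64.1 and 31.1 at d7, 9.21, 26.6 and 56.7 at d10, 2.42, 4.37 and 3.38 at d14 and 1.79, 10.2 and 10.3 at d21. Both genes had their highest callus on d5 in each diet and their lowest DIO values from d14 on. Tnnc1 rose from d3 to d5 at an equal level of other muscle genes in Lean mice (log2 change 1.79, SE 0.40, adjusted p = 0.0448), a call kept in 3 of 12 fits that left out a library, while for Tnnt1 the Lean change of 1.54 had an adjusted p of 0.0578. With Jph2, a junctophilin that holds calcium release sites together, Tnni1 and Tnnc1 were the 3 genes that rose from d3 to d5 in Lean mice on this scale, where 1.52% of all genes rose. This count of 3 was 8 without Lean d10 replicate 1, 1 without Lean d3 replicate 1 and 0 without Lean d3 replicate 2 or Lean d5 replicate 1 or 2. The other slow genes followed the 3 troponins to different degrees. Over the 30 libraries log2 CPM correlated at 0.942 between Tnnt1 and Tnni1, at 0.957 between Tnnt1 and Tnnc1 and at 0.942 between Tnni1 and Tnnc1, while with Tnni1 Myoz2 reached 0.762, Actn2 0.660, Mybpc1 0.499, Myl3 0.160 and Myl2 0.0631. Myl2 correlated at 0.718 with Myl3 and at 0.812 with the slow myosin heavy chain Myh7. Myl2 was at 6.88, 0.896 and 1.18 CPM in DIO d5 and 12.4, 21.7 and 61.1 CPM in DIO d10. In Lean d5 it was at 8.24, 16.97 and 2.75 CPM.

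Genes of developing and regenerating fibres also had their highest calli on d5. Their list of 15 genes, which holds the embryonic and perinatal myosins Myh3 and Myh8 and the cardiac actin Actc1 of immature fibres, summed to 143 to 489 CPM on d3, 335 to 2911 on d5 and 206 to 233 on d10 in Lean mice. In DIO mice the sums were 216 to 319 on d3, 582 to 2837 on d5, 149 to 256 on d10 and 70.4 to 119.6 on d21. On d10 the 3 Lean sums were 219.8, 206 and 233 CPM, and on d21 the 3 DIO sums were 70.4, 119.6 and 94.9 CPM. Of these genes, 14 of 15 differed between any Lean days, where 19% of all genes did, and 15 of 15 between any DIO days, where 59.1% did. The Lean count was 13, 10 and 13 without Lean d10 replicate 1, 2 and 3, and the DIO count stayed at 15 without any 1 of the DIO d21 calli. A test over any days does not place a peak on d5. From d3 to d5, 1 of the 15 genes (Myh8) rose in Lean mice (73 of all 16471) and 6 in DIO mice (237 of all 16995). None passed from d5 to d7 in either diet, and from d7 to d10 12 fell in DIO mice (1191 of all 16995) and none passed in Lean mice. Between Lean d3 and d10, 2 rose and 5 fell (2508 and 2317 of all 16471). Myh3 was at 31.1, 22.9 and 15.5 CPM on d3 and 97.8, 589.6 and 414 CPM on d5 in DIO mice, and 1 DIO and 1 Lean callus of d5 lay well below the other two for Myh3 as for Tnni1. The summed list correlated with Tnni1 at 0.932, Tnnt1 at 0.856 and Tnnc1 at 0.838 over the 30 libraries, and with Myl2 at -0.184. These are descriptions, and whether immature fibres were the source of the slow troponin RNA was not tested.

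Slow and fast partners were then set against each other within each library, which cancels the amount of muscle. For 8 pairs the log2 ratio of the slow to the fast count, with 0.5 added to each, was tested for a diet difference within days and for differences between days in each diet, in 24 exact permutation tests in all. No pair passed in any of the 3 families after adjustment over the 24 tests. Tnni1/Tnni2 stood at -5.06, -5.25 and -4.56 at d3, -2.32, -1.22 and -0.97 at d5, -5.80, -2.53 and -3.57 at d7 and -7.87, -6.28 and -4.94 at d10 in DIO mice, with the values of d5 above those of d3 and d10 in each callus (exact permutation p = 0.00539, adjusted p = 0.0647). In Lean mice it stood at -3.98, -5.74 and -5.69 at d3, -1.59, -1.89 and -3.23 at d5, -4.52, -4.72 and -3.44 at d7 and -2.27, -5.70 and -5.39 at d10 (exact permutation p = 0.0917, adjusted p = 0.200). The high value on Lean d10 was that of the callus with little muscle RNA, and without it 4 of the 8 pairs passed between Lean days. In that callus Tnni1 was at 19.9 CPM, against 21.1 and 17.1 in the other calli of Lean d10, while Tnni2 was at 96.4 against 1101 and 719. In DIO mice the fast partner Tnni2 was higher on d10 than on d3 and d5 in each callus, at 996, 485 and 834 CPM on d3, 316, 598 and 449 on d5 and 1517, 2113 and 1426 on d10. This did not hold in Lean mice, where Tnni2 was at 533, 472 and 822 CPM on d3 and 96.4, 1101 and 719 on d10, and the fast Mybpc2 was at 731, 477 and 475 CPM on d3 and 733, 903 and 684 on d10 in DIO mice, so its values of the 2 days overlapped. Myoz2/Myoz1, a slow and a fast partner of calcineurin at the Z-disc, had the smallest p between DIO days (exact permutation p = 0.00292, adjusted p = 0.0647), with means of -3.0 ± 0.53 at d3, -2.17 ± 0.05 at d5, -3.76 ± 1.05 at d7 and -5.37 ± 0.70 at d10 (SD, n = 3). Between DIO days, 2 pairs passed without DIO d5 replicate 1 or without DIO d10 replicate 3, and 1 without DIO d7 replicate 1 or 2. Between the diets the mean differences over the 4 days ran from -0.43 for Myl2/Mylpf to 0.26 for Actn2/Actn3, the smallest of the 8 exact permutation p-values being 0.240 (adjusted p = 0.384), and no pair passed without any 1 library. Of the pairs, Actn2 is used by all fibres and Mybpc1 also by fast ones, so these ratios are not pure measures of fibre type.

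**Figure D3:**
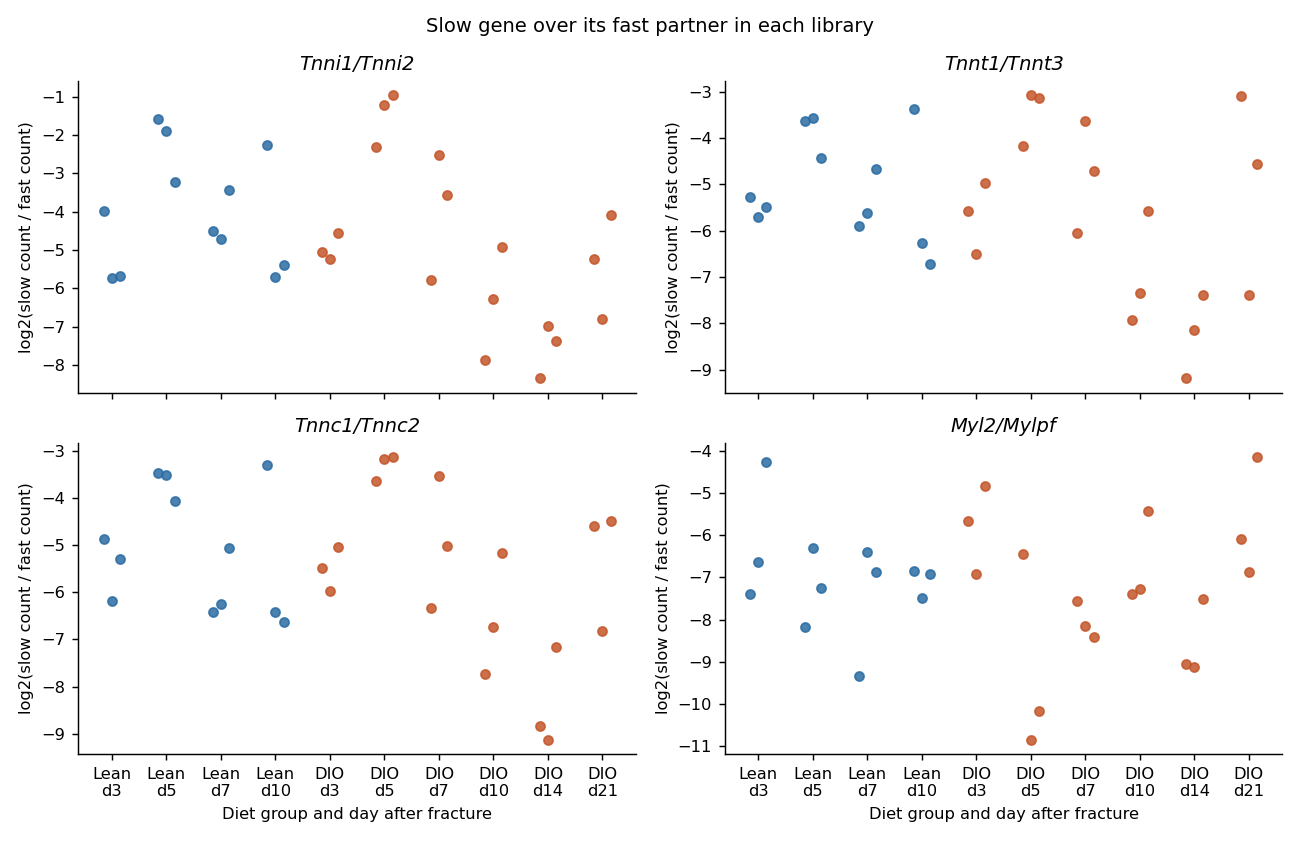
Log2 ratio of the slow to the fast count in each library for the 3 troponin pairs and the regulatory light chains, by diet group and day; points are single calli (blue Lean, orange DIO). Each troponin ratio has its highest DIO callus on d5, but single calli of other days reach d5 values. DIO d21 replicate 1 is at -3.09 for Tnnt1/Tnnt3, against -4.18, -3.08 and -3.13 in DIO d5. DIO d7 replicate 2 is above DIO d5 replicate 1 for Tnnt1/Tnnt3 and Tnnc1/Tnnc2. Lean d10 replicate 1 is above each Lean d5 callus for the same pairs (-3.39 and -3.30). Myl2/Mylpf is at its lowest in 2 of the 3 DIO d5 calli.

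Among the calcium-handling genes, Pvalb and Casq1 made up more of the muscle RNA on d10 than on d3, whereas the fast calcium pump Atp2a1 did not. Pvalb was at 190, 261 and 422 CPM at d3, 700.1, 488 and 219 at d5, 1490, 1114 and 516 at d7 and 56.1, 1648 and 1236 at d10 in Lean mice. In DIO mice Pvalb was at 535, 229.6 and 396 CPM at d3, 159, 274 and 307 at d5, 1399, 319 and 815 at d7, 2283, 3259 and 2905 at d10, 1329, 3628 and 567 at d14 and 56.7, 1332 and 264 at d21. Lean d10 replicate 1 and DIO d21 replicate 1, with little muscle RNA, had the lowest values. As a share of the 41 genes' counts, Pvalb made up 1.00, 1.99 and 1.93% on d3 and 2.82, 6.54 and 6.85% on d10 in Lean mice, and 1.76, 1.33 and 1.58% on d3, 6.26, 7.21 and 8.74% on d10 and 7.28, 6.01 and 5.99% on d21 in DIO mice. Atp2a1 made up 9.86, 10.6 and 9.57% on d3, 8.62, 6.75 and 5.66% on d10 and 5.22, 11.6 and 7.96% on d21 in DIO mice. Each Pvalb share of d10 and d21 was above each share of d3 of the same diet, and this held also for the calli with little muscle RNA. At an equal level of other muscle genes Pvalb rose from d3 to d10 in Lean mice (log2 change 2.34, SE 0.52, adjusted p = 0.00856), from d5 to d7 (1.72, adjusted p = 0.0170) and from d7 to d10 in DIO mice (1.47, adjusted p = 6.97e-04), and from d3 to d21 in DIO mice (log2 change 2.93, SE 0.34, adjusted p = 2.15e-05). Casq1, the calcium store protein of fast fibres, rose as well from d3 to d10 in Lean mice (log2 change 1.63, SE 0.36, adjusted p = 0.00828) and from d3 to d21 in DIO mice (log2 change 2.42, SE 0.28, adjusted p = 2.25e-05). Between d5 and d7 in DIO mice Pvalb and Tnni2 were the 2 genes that rose (0.388% of all genes), a count that was 0 without DIO d5 replicate 2 or 3 and 6 without DIO d7 replicate 2 or DIO d21 replicate 2. The calls of Pvalb and Casq1 between d3 and d10 in Lean mice and between d3 and d21 in DIO mice were kept in each fit that left out a library.

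Between d3 and d10 in Lean mice, 10 of the 41 genes rose on this scale (12.7% of all genes rose) and 4 fell (12.4%). Those that rose were Eno3, Jph2, Myl1, Casq1, Pvalb, Mylpf, Ldb3, Actn3, Myoz1 and Mb, with the fast light chain Myl1 at 1.27 and the muscle enolase Eno3 at 1.38, and those that fell were Trim63, Fbxo32, Klhl41 and Myoz2. The total of 14 was 21 without Lean d10 replicate 1, 9 without Lean d3 replicate 1 or 2 and 6 without Lean d10 replicate 2. Between d3 and d21 in DIO mice 19 of the 41 genes rose and none fell, where 13.8% of all genes rose, and the median over the 41 was 0.86 against 0.04 over all genes. Without the covariate none of the 41 rose, and the 50 reference genes fell more (median log2 change -1.92, against -1.34 for the 41). A rise here is therefore relative to reference genes that fell. Genes of the thin filament among them were the fast troponins Tnnc2 (1.24), Tnni2 (1.05) and Tnnt3 (0.99), and energy genes were Pygm (1.27), Ampd1, Eno3, Pgam2 and Ckm. This count was 19 without DIO d21 replicate 1 and 6 without DIO d21 replicate 2. The 10 genes that fell between d3 and d21 without the covariate all lost their call with it: Smpx, Ryr1 and Mb turned to 0.24, 0.01 and 0.17. From d7 to d10 in DIO mice 8 genes rose (6.53% of all genes) and Trim63 fell (7.79%), and the total of 9 was 15 without DIO d21 replicate 1 or 2, 14 without DIO d10 replicate 1 and 5 without DIO d10 replicate 3. None of the 41 genes passed in edgeR on this scale from d5 to d7 (0% of all genes) or d7 to d10 (2.16%) in Lean mice. None passed from d10 to d14 in DIO mice either (0.571%). At an unadjusted p under 0.05, 16, 4 and 7 of the 41 genes passed in these steps. Over all genes, 1123 and 3915 of 16471 passed so in Lean mice and 2889 of 16995 in DIO mice.

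**Figure D4:**
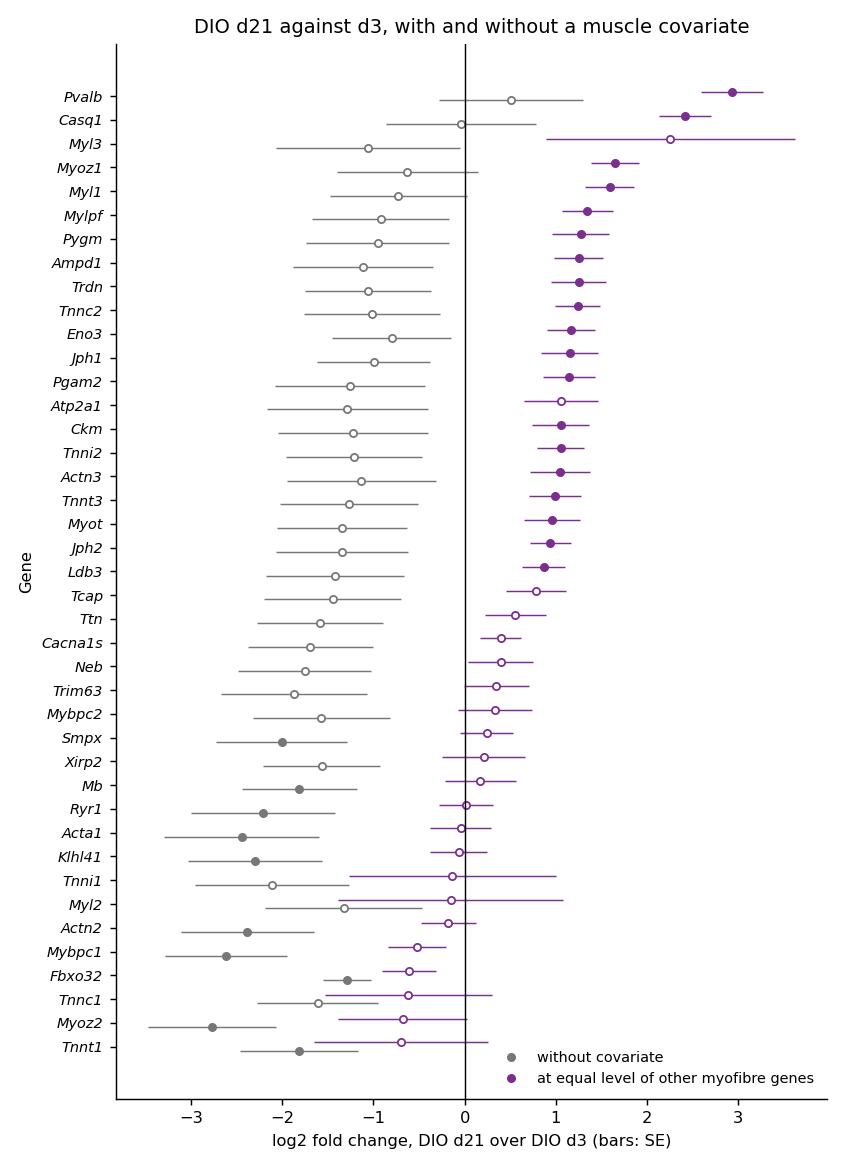
Log2 fold change from d3 to d21 in DIO calli for the 41 genes without a covariate (grey) and at an equal level of 50 other myofibre genes (purple), with SE bars; filled points passed an adjusted p of 0.05. Most grey points lie left of zero and most purple points right of it, with Pvalb at 2.93 and Casq1 at 2.42.

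Trim63 and Fbxo32, both ubiquitin ligases that rise in muscle wasting, had their highest callus on d3 in each diet. In DIO mice Trim63 was at 72.5, 39.99 and 73.9 CPM at d3, 23.7, 34.5 and 21.98 at d5, 43.01, 26.3 and 27.03 at d7, 16.3, 27.2 and 13.3 at d10, 13.9, 36.6 and 5.18 at d14 and 1.33, 44.7 and 5.03 at d21. Fbxo32 was at 116, 71.3 and 89.6 CPM at d3, 32.99, 42.7 and 31.2 at d5, 67.6, 47.1 and 41.1 at d7, 47.7, 45.1 and 39.6 at d10, 49.5, 48.97 and 31.8 at d14 and 33, 54.3 and 26.2 at d21. The d3 values of both genes were above those of d5 and d10 without overlap in DIO mice, while Trim63 in DIO d21 replicate 2 lay within the range of d3. From d3 to d5, 2191 of all 16995 genes tested and 9 of the 41 were lower without overlap. At an equal level of other muscle genes, Trim63 fell from d3 to d10 in Lean mice (log2 change -1.91, SE 0.43, adjusted p = 0.00859) and from d7 to d10 in DIO mice (log2 change -1.26, SE 0.28, adjusted p = 0.00445), and rose from d14 to d21 in DIO mice (log2 change 1.38, SE 0.31, adjusted p = 0.0122), where 5.67% of all genes rose. Fbxo32 fell from d3 to d5 in DIO mice on this scale too (log2 change -1.26, SE 0.21, adjusted p = 0.00254), where 0.565% of all genes fell and Casq1, Tnni1 and Myl1 rose (2.06% of all genes rose). The DIO calls of Trim63 between d7 and d10 and of Fbxo32 between d3 and d5 were kept in each of 18 fits that left out a library, and the call between d14 and d21 was lost without DIO d14 replicate 3 or DIO d21 replicate 2. The count of 4 genes between d3 and d5 was 7 without DIO d5 replicate 1, 2 without DIO d3 replicate 2 or DIO d5 replicate 2, and 1 without DIO d3 replicate 1, DIO d3 replicate 3 or DIO d5 replicate 3.

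**Figure D5:**
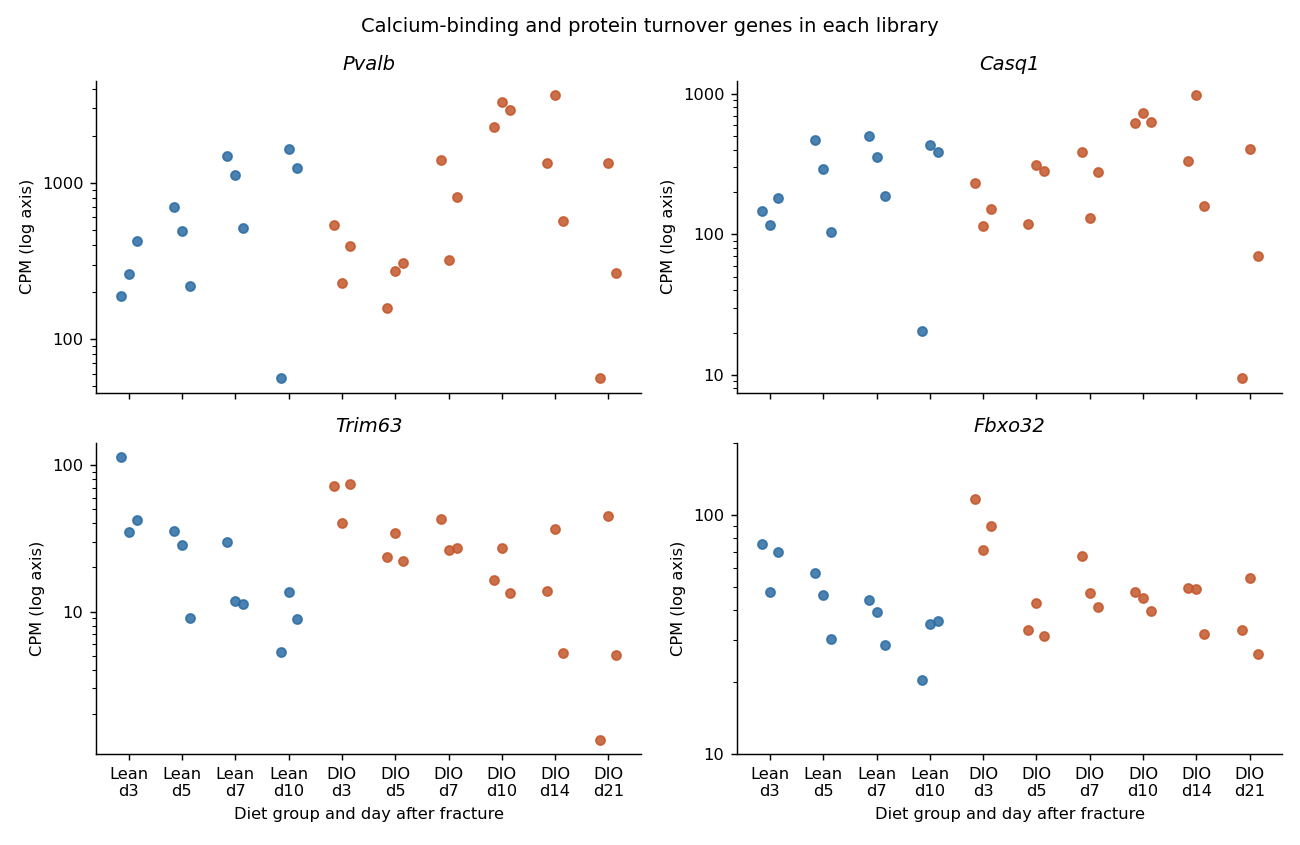
CPM on a log axis of Pvalb, Casq1, Trim63 and Fbxo32 in each library by diet group and day; points are single calli (blue Lean, orange DIO). The highest Pvalb value is in DIO d14 replicate 2, followed by the 3 DIO d10 calli, and Trim63 and Fbxo32 have their highest calli on d3.

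Between the diets at an equal level of other muscle genes, 6 of the 41 genes were lower in DIO on d5, where 5.12% of all genes were lower, and none passed on d3, d7 or d10 (0%, 1.52% and 0% of all genes). The genes were Ckm (log2 change -0.69, SE 0.09, adjusted p = 0.00526), Pvalb (-0.87), Actn3 (-0.65), Tcap (-0.73), Ryr1 (-0.43) and the fast calcium pump Atp2a1 (-0.42). Ckm made up 8.68, 9.48 and 10.2% of the 41 genes' counts in Lean and 7.73, 6.62 and 6.61% in DIO on d5, with no overlap. The count was 2 without DIO d5 replicate 2 or 3, and it fitted 6 libraries with 3 coefficients, so that few degrees of freedom were left. At an unadjusted p under 0.05, 3 genes passed on d3, 10 on d7 and 3 on d10. Over all genes tested, 1040 of 15772, 2230 of 15753 and 320 of 15341 passed so on these days. The change of the diet difference over d3 to d10 passed for none of the 41 genes at an equal level of other muscle genes either (0.487% of all genes), so a difference between d5 and the other days was not shown.

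Of the 4 adult myosin heavy chains, Myh1, Myh2 and Myh7 differed between any DIO days, where 59.1% of all genes did. None of the 4 differed between any Lean days, where 19% of all genes did. In DIO mice Myh1 and Myh2 fell between d3 and d21 (21.8% of all genes fell), also without DIO d21 replicate 1. Without DIO d21 replicate 2 all 4 differed between any DIO days, and without replicate 3 only Myh7 did. Myh4, the fastest form, was at 2577, 1704 and 1592 CPM on d3, 3714, 4173 and 3400 CPM on d10 and 64.5, 2538 and 424 CPM on d21 in DIO mice. Myh7, the slow form, was at 27.2, 2.63 and 51.1 CPM on d3, 12.7, 34.5 and 61.6 CPM on d10, 0.495, 1.42 and 1.32 CPM on d14 and 0.230, 14.5 and 17.7 CPM on d21. Myh7 rose from d7 to d10 (log2 change 3.20), fell from d10 to d14 (-5.07) and rose from d14 to d21 (3.32), where the fall was no longer called without DIO d21 replicate 3 and the last rise without replicate 2 or 3. Of the 50 other myofibre genes, 8 fell and none rose between d3 and d10 in Lean mice, where 14.1% of all genes fell, with a median log2 change of -0.53 against 0.02 over all genes. Between d3 and d21 in DIO mice 32 fell and none rose, where 21.8% of all genes fell, with a median of -1.92 against 0.03. The count of 8 was 3 without Lean d10 replicate 1 and 6 without replicate 2 or 3, and the count of 32 was 26, 47 and 23 without DIO d21 replicate 1, 2 and 3. Markers of other tissues also changed with the day: the summed tendon markers were at 2253 to 3056 CPM in DIO d7, 729.7 to 902 in DIO d10 and 100.1 to 627 in DIO d21, and the adipocyte markers at 1.85 to 4.68, 36.6 to 134 and 337 to 419.5 CPM in DIO d5, d10 and d21. Their part in the muscle gene results was not tested.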

How the data were processed

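The authors sequenced poly(A) RNA of each callus (Illumina Stranded mRNA Prep, paired-end), trimmed reads with BBDuk, aligned them to GRCm38 with HISAT2 2.1.0 and counted them per gene with HTSeq. The strand setting, annotation and HTSeq version were not given in the sources used here. The deposited table holds raw counts per gene, with no normalization, for 30 libraries of 10 groups. Every library has its own column. The edgeR p-values rest on the spread between mice within groups, estimated over all groups of a fit together.

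The 41 genes and all marker lists were chosen with earlier results of these data known. All 41 may be named, and values in each library are given for the first gene of each role group, for genes of the slow and fast pairs and for genes past the threshold, in the days a result turns on. Of other genes, myosins and list members were named.

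Counts were fitted with edgeR 4.0.16 in R 4.3.3 (TMM scaling, filterByExpr, glmQLFit and glmQLFTest, Benjamini-Hochberg adjustment, threshold 0.05). Lean days used 12 libraries, DIO days 18, diets the 6 of a day and the change of the diet difference 24. SE is the log2 change divided by the root of F. CPM are TMM-scaled. Alternatives were RLE size factors, DESeq2 1.42.0, a filter of 0.5 CPM in 1 library, no filter but 1 count, the replicate number as a block, all 30 libraries in one fit and leaving out each library. The muscle covariate, alone and with each library left out, was added after seeing the data. Slow to fast ratios were compared by exact permutation tests, two-sided for diets (within days) and on the F statistic for days d3 to d10. Scripts were tested on simulated data. Replicate numbers number different mice. Samples with the same number deviated together, with each correlation above 0.1, only between Lean d5 and d7 (0.35, 0.28 and 0.30). Their correlations were also all positive, but not all above 0.1, in 4 further comparisons. These were Lean d3 and d5 (0.10, 0.38 and 0.04), Lean d7 and d10 (0.08, 0.30 and 0.06), Lean d3 and d10 (0.26, 0.35 and 0.01) and DIO d10 and d14 (0.20, 0.13 and 0.08).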

Additional observations from a re-analysis of the deposited data

How the results depend on the processing

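Counts of the 41 genes past the threshold stayed within 1.5 times of those reported under RLE size factors and under a filter of 0.5 CPM. DESeq2 gave 3 between Lean d3 and d5, 1 between Lean d5 and d7, 3 between DIO d10 and d14, and 1 between the diets on d3 and on d7. With no filter but 1 count, 1 passed between Lean d3 and d5, 28 between any DIO days, 3 from DIO d3 to d5, 2 from d7 to d10, 3 from d10 to d14, 8 from d14 to d21, 18 from d3 to d21, and 1 between the diets on d3 and on d7. With all 30 libraries in one fit, 0 passed between DIO d10 and d14. At an equal level of other muscle genes the counts were 15 between any Lean days, 3 from Lean d3 to d5, 14 from Lean d3 to d10, 32 between any DIO days, 4 from DIO d3 to d5, 2 from d5 to d7, 9 from d7 to d10, 0 from d10 to d14, 19 from d3 to d21 and 6 between the diets on d5. There the log2 changes of Smpx (0.24), Ryr1 (0.014) and Mb (0.17) from DIO d3 to d21 turned positive. The cause was not tested.

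With the replicate block, 1 gene passed from Lean d3 to d5 and 17 from DIO d3 to d21, and the block left 0 between Lean d5 and d7, where the numbers deviated together. It moved no other count by over 1.5 times. In every other comparison the correlation of same-numbered samples was lower on average.

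Leaving out each library gave 1 to 6 genes between any Lean days, 0 to 3 from Lean d3 to d5, 1 to 3 from Lean d3 to d10, 7 to 39 between any DIO days, 0 to 1 in the DIO steps from d3 to d5, d7 to d10 and d10 to d14, 0 to 34 from d14 to d21, 5 to 35 from d3 to d21 and 0 to 4 between the diets on d5. At an equal level of other muscle genes the ranges were 6 to 23, 0 to 8 and 6 to 21 for the same Lean comparisons and 0 to 1 from Lean d7 to d10. In DIO mice they were 29 to 34 between any days, 1 to 7 from d3 to d5, 0 to 6 from d5 to d7, 5 to 15 from d7 to d10, 0 to 1 from d10 to d14, 0 to 2 from d14 to d21 and 6 to 20 from d3 to d21. Between the diets they were 2 to 7 on d5 and 0 to 1 on d7 and on d10. Of the 8 slow to fast pairs, 0 to 4 passed between Lean days and 0 to 2 between DIO days.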
